A study of Homo sapiens with 3 samples.

Results

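A small set of RNA editing clusters carried a C-to-U change in at least 40% of their reads. These highly edited clusters were chosen by their numbers of reads and edited reads, in each of 3 replicates of HEK293T cells that expressed an RBFOX2-APOBEC1 fusion, as all clusters with at least 10 reads in which edited reads made up 0.4 or more of all reads. The rule kept 40 of 13082 clusters with at least 10 reads in replicate 1 (0.306%), 42 of 13838 in replicate 2 (0.304%) and 36 of 10087 in replicate 3 (0.357%). The mean was 39.3 ± 3.06 (SD, n = 3 replicates). Because reads and edited reads chose these clusters, their edited-read share, edit fraction and converted C bases are given below as a description, without a test. Merging clusters that overlapped on the same strand turned the 118 highly edited clusters into 63 loci, of which 21 met the rule in all 3 replicates, 13 in 2 replicates and 29 in 1 replicate.

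STAMP marks the RNA targets of an RNA-binding protein by fusing it to APOBEC1, a cytidine deaminase best known for editing the apolipoprotein B messenger RNA. The fused deaminase converts C to U near the places where the protein sits, and sequencing reads the change as C to T. RBFOX2 is a regulator of alternative splicing that binds the RNA motif GCAUG. An editor that acts around a binding site typically leaves conversions at several C bases, each in a part of the transcripts.

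All 3 samples belong to 1 group, human embryonic kidney HEK293T cells of the derivative that the labels call HEK293XT, with the genotype given as WT. Expression of the fusion was induced with doxycycline for 72 h. Per the labels' treatment field and the study's text the construct was transfected transiently, although the labels' growth protocol speaks of stable lines. Cells without the fusion, cells with APOBEC1 alone and genomic DNA were not analysed here, so no background of C-to-T changes was available for any cluster. The study calls the samples biological replicates, and no source used here says how the cultures were separated.

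Each replicate came as its own list of clusters from FLARE, a pipeline that tests windows of 30 bases for more edited bases than a background model predicts and merges the windows that pass. The lists held 14295, 15181 and 11367 clusters in replicates 1, 2 and 3, with 1637592, 1731304 and 1104249 reads inside clusters. These reads are not the depth of the libraries. Only clusters that passed were deposited, so a locus with no cluster in a replicate is not a locus without editing. Reads carry no molecular identifiers, so all intervals below are Wilson 95% intervals that cover counting error only. Positions are on hg19 and count from 1. For a locus they span all its clusters, whose extent can differ between replicates. Where it does, shares, converted C bases and classes are compared over different bases.

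The highly edited clusters were far from the bulk of the clusters by the very values that chose them. Their median edited-read share was 64.7%, 60.6% and 58.0% in replicates 1, 2 and 3, and over all clusters with at least 10 reads it was 5.13%, 5.13% and 5.41%. They held a median of 23, 25 and 30 reads, with a lowest value of 10 and a highest of 6909, 6422 and 5023. All reads were edited in 2, 4 and 7 clusters, and at least 80% were edited in 10, 8 and 11. At the other end 4, 4 and 3 clusters lay exactly on the limit of 40%.

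The part of the editing signal in these few clusters is a description, since the rule chose clusters rich in edited reads. They held 12.1%, 10.2% and 11.7% of all edited reads in clusters and 6.75%, 5.89% and 6.81% of all edited bases, on 1.16%, 0.983% and 1.21% of the covered C bases. A pair of mitochondrial clusters carried much of this. Without mitochondrial clusters, the shares were 3.85%, 2.37% and 3.35% of edited reads and 1.83%, 1.58% and 2.26% of edited bases. The value of 3.85% in replicate 1 includes the LINC00486 cluster, listed with 677 edited reads but only 15 edited bases.

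The clusters fell into classes by how many C bases had changed. Converted C bases are the edit fraction (edited bases over C bases covered by reads) times the number of C bases in the cluster, so a value of 1 is what a single fully changed C base would give. Edited bases per edited read tell whether 1 change or several lay on the same read. The counts are sums over a cluster and do not show which C base changed, so a value near 1 with 1 edited base per read can also come from different C bases on different reads. A cluster was called near-complete when it had at most 1.1 edited bases per edited read and 0.8 to 1.2 converted C bases. It was partial with fewer than 0.8 converted C bases and over with more than 1.2, at the same limit on bases per read. It was spread with at least 1.5 edited bases per edited read, and intermediate between 1.1 and 1.5.

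The near-complete class was the largest. It held 18 of 40 clusters in replicate 1 (45%, 30.7 to 60.2), 19 of 42 in replicate 2 (45.2%, 31.2 to 60.1) and 19 of 36 in replicate 3 (52.8%, 37.0 to 68.0), a mean of 47.7% ± 4.42 (SD, n = 3). These intervals treat clusters as independent draws, although every cluster that met the rule was counted. The SD is over replicates that share 21 of the 63 loci. The partial class made up 31.2% ± 3.00 with 13, 14 and 10 clusters. Spread editing made up only 10.1% ± 1.79 with 4, 5 and 3 clusters. Another 10 clusters over all replicates were intermediate and 3 were over. Among the clusters with at least 10 reads and under 40% edited reads the order was different. There spread editing was the largest class, with 56.0%, 59% and 60.5%, and near-complete change was seen in 5, 11 and 2 clusters. By the definitions, a cluster under 40% edited reads with at most 1.1 edited bases per edited read rarely reaches 0.8 converted C bases. It does so only where the coverage per C base is well below its number of reads. The low count of near-complete clusters below the limit thus follows largely from the definitions. In these 18 clusters the coverage per C base was 0.00251 to 1.04 of the mean depth. The highest value, of TLK2 in replicate 2, went with a coverage per C base of 12.85 at 33 reads. Since most clusters have only a few edited reads, the comparison was repeated among clusters with at least 11 edited reads, where spread editing made up 3.70%, 10.7% and 11.1% of the highly edited clusters and 49.3%, 52.1% and 48.5% of the others.

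**Figure D1:**
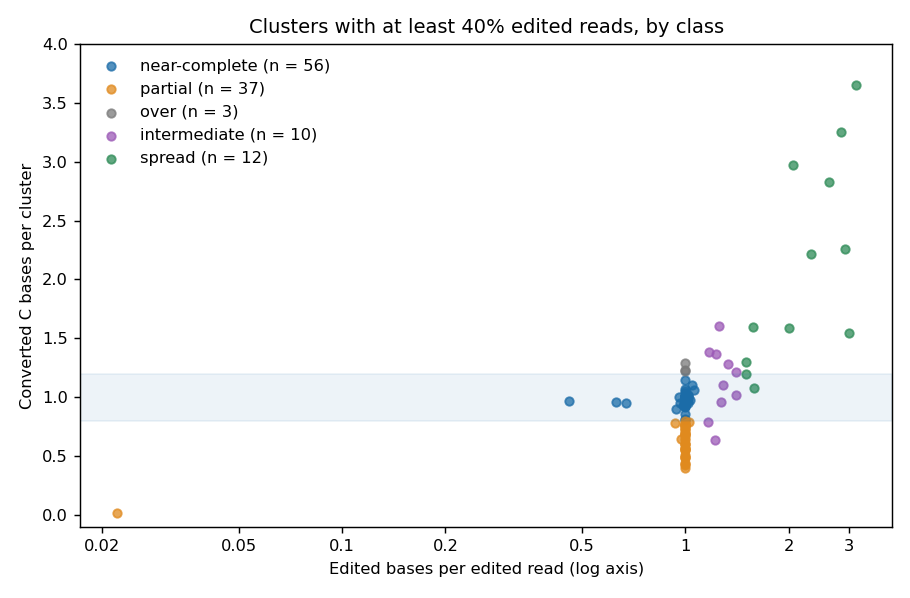
Converted C bases per cluster (vertical axis) against edited bases per edited read (horizontal log axis) for all 118 highly edited clusters of the 3 replicates, each point being 1 cluster and the shaded band marking 0.8 to 1.2 converted C bases. The 56 near-complete clusters gather around 1 converted C base and 1 edited base per edited read, the 12 spread clusters reach 3.65 converted C bases, and the point at the lower left is the LINC00486 cluster with 0.0222 edited bases per edited read.

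A total of 14 loci were near-complete in all 3 replicates, so the class limits of 0.8 to 1.2 bound their converted C bases. Their mean converted C bases lay between 0.932 and 1.06, and the highest SD over replicates was 0.0356. Their mean edited-read share ran from 55.8% to 100%, with a median SD of 1.90 percentage points and a highest of 8.95. The 7 other loci that met the rule in all replicates, 4 of which stand there because their class changed, had a median SD of 4.92 percentage points and a highest of 18.6. In 20 of the 21 loci the intervals of the edited-read share overlapped between all replicates, and the exception was AC007969.5.

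Pseudogenes, clone-named genes, mitochondrial genes and nuclear protein-coding genes carried these 14 loci, and 4 of them lay in pseudogenes. GPX1P1, a pseudogene of the antioxidant enzyme glutathione peroxidase 1, had a cluster in an exon on chromosome X from 13397425 to 13397459, minus strand. Every read of it was edited, with 22 of 22 reads in replicate 1, 24 of 24 in replicate 2 and 34 of 34 in replicate 3. Its converted C bases were 1.06 ± 0.0356 (SD, n = 3), so the 12 C bases of the cluster together gave about the amount of change of 1 of them.

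RPL12P4, a pseudogene of the large-subunit ribosomal protein L12, behaved alike on chromosome 20 from 53691486 to 53691530, plus strand. Edited reads numbered 33 of 34, 23 of 23 and 17 of 17, and the converted C bases were 1.00 in each replicate. Only 1 read in all replicates of this locus was unedited.

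SNRPGP10 and PTMAP4 had fewer edited reads and nearly as many converted bases. SNRPGP10, a pseudogene of the spliceosomal Sm protein G, lies at chromosome 1 from 205320376 to 205320420, plus strand, and had 45 of 78, 57 of 94 and 50 of 93 edited reads. Its edited-read share was 57.4% ± 3.45 (SD, n = 3) and its converted C bases were 0.938, 0.930 and 0.927. PTMAP4, a pseudogene of the nuclear acidic protein prothymosin alpha, lies at chromosome 12 from 9392583 to 9392627, minus strand. It had 33 of 60, 51 of 94 and 39 of 67 edited reads and 0.926, 0.974 and 0.969 converted C bases. In both loci the mean read depth was well below the number of reads that touched the cluster, at 0.753, 0.778 and 0.735 of the reads in SNRPGP10 and 0.669, 0.666 and 0.689 in PTMAP4. This is usual, as the median over clusters with at least 10 reads and under 40% edited reads was 0.713, 0.716 and 0.713. The covered C bases of both loci were also low for the depth, which raises the converted C bases. They were 0.817, 0.838 and 0.788 of the mean depth per C base in SNRPGP10 and 0.887, 0.837 and 0.872 in PTMAP4. A read that touches the cluster without reaching an edited base counts among all reads but not among the covered C bases at that place, so the edited-read share and the converted C bases need not be equal.

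Clone-named genes formed the largest group, with 6 loci. Such names were given to transcripts of a sequenced clone, and none of these names matched a RefSeq gene, so nothing is said here of their function. RP11-864N7.2 was the most deeply read of them, at chromosome 11 from 74456762 to 74456806, minus strand. Edited reads numbered 483 of 484, 321 of 321 and 312 of 312, with 1.01, 1.00 and 1.02 converted C bases, and the interval of the edited-read share began at 98.8% in each replicate. RP11-51O6.1, at chromosome 16 from 61089349 to 61089393, minus strand, had 232 of 233, 172 of 173 and 168 of 168 edited reads and 1.01, 1.02 and 1.06 converted C bases. In both genes all but 1 read of a replicate, or every read, carried a change. Nearly every read spanned these clusters, with a mean depth of 0.998, 0.999 and 1.00 of the reads in RP11-864N7.2. In RP11-51O6.1 it was 0.997, 0.996 and 0.998.

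The other clone-named loci had fewer reads. The cluster shared by CTD-2192J16.15 and CTD-2192J16.22, at chromosome 19 from 12754570 to 12754614, minus strand, had 41 of 44, 55 of 57 and 39 of 39 edited reads. RP11-889L3.1, at chromosome 5 from 177482726 to 177482770, plus strand, had 12 of 13, 16 of 16 and 13 of 13. RP1-159A19.3, at chromosome 1 from 27975991 to 27976035, plus strand, had 19 of 22, 30 of 35 and 20 of 24. Their intervals overlapped within each locus, and the lowest bound was 64.1%. AC144530.1, at chromosome 3 from 197577272 to 197577301, minus strand, varied most among the near-complete loci. It had 18 of 23, 15 of 23 and 14 of 17 edited reads, a share of 75.3% ± 8.95 (SD, n = 3), and its intervals were wide enough to overlap. Its covered C bases were 0.812, 0.746 and 0.882 of the mean depth per C base.

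A pair of mitochondrial messenger RNAs, both for subunits of respiratory complex I, held the deepest clusters. MT-ND2, on chromosome M from 5311 to 5355, plus strand, had 4587 of 6909 edited reads in replicate 1, 4197 of 6422 in replicate 2 and 3233 of 5023 in replicate 3. These are 66.4% (65.3 to 67.5), 65.4% (64.2 to 66.5) and 64.4% (63.0 to 65.7), and the converted C bases were 0.938, 0.936 and 0.939. The mean depth was 0.709, 0.701 and 0.691 of the reads. The SD over replicates was 1.01 percentage points for the share and 0.00149 for the converted C bases.

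MT-ND5, on chromosome M from 12773 to 12817, plus strand, had 669 of 880, 1045 of 1360 and 623 of 813 edited reads, a share of 76.5% ± 0.424 (SD, n = 3). Its converted C bases were 0.950, 0.960 and 0.966. The deposited counts of this cluster do not add up in the usual way, because it had 0.670, 0.629 and 0.457 edited bases per edited read, and an edited read should hold at least 1 edited base. Its covered C bases were also low for the depth, at 0.692, 0.648 and 0.468 of the mean depth per C base. The ratios were lowest in replicate 3 for both, and the reason was not tested. A second MT-ND5 cluster elsewhere in the gene had an edited-read share of 5.57%, 4.71% and 2.77%.

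Messenger RNAs of nuclear protein-coding genes gave the last pair of near-complete loci. NKRF, which encodes a repressor of NF-kappa-B target genes, had a cluster at chromosome X from 118723531 to 118723575, minus strand. Edited reads numbered 61 of 86, 47 of 69 and 51 of 67 and the converted C bases were 0.983, 0.953 and 1.01. The 6, 4 and 4 other clusters in NKRF had median edited-read shares of 2.97%, 4.28% and 3.58%. MAP1S, which encodes a microtubule-associated protein, had 27 of 34, 18 of 25 and 23 of 28 edited reads at chromosome 19 from 17838769 to 17838813, plus strand. Its converted C bases were 0.955, 0.988 and 1.00, out of 23 C bases in the cluster.

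**Figure D2:**
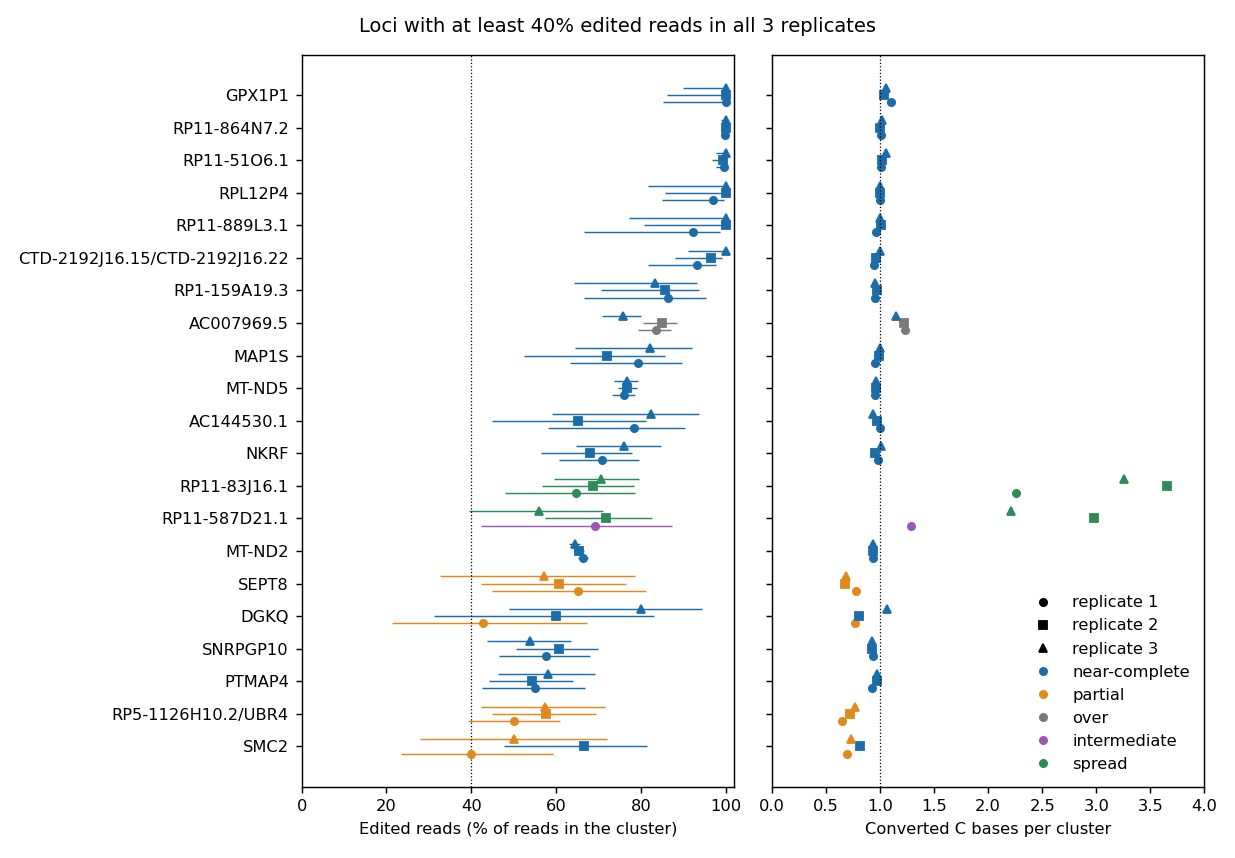
Edited-read share in percent (left, horizontal bars are Wilson 95% intervals, dotted line at the limit of 40%) and converted C bases (right, dotted line at 1) for the 21 loci that met the rule in all 3 replicates, with the replicate given by the symbol and the class by the colour. The near-complete loci lie near 1 converted C base by definition, with 55.8% to 100% of their reads edited in the mean, and RP11-83J16.1 and RP11-587D21.1 lie to the right of it with up to 3.65.

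The 7 remaining loci of all 3 replicates showed other patterns. AC007969.5, at chromosome 2 from 172373810 to 172373854, minus strand, had 299 of 358, 253 of 298 and 244 of 322 edited reads and more than 1 converted C base, with 1.24, 1.23 and 1.15. It was classed over in replicates 1 and 2 and near-complete in replicate 3, with 1.00 edited base per edited read. Its share of 75.8% in replicate 3 (70.8 to 80.1) was below the interval of replicate 2 (80.4 to 88.5).

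Partial change repeated in UBR4 and SEPT8. UBR4 encodes a very large ubiquitin ligase that recognises N-terminal degradation signals, and its cluster at chromosome 1 from 19401275 to 19401319, minus strand, is shared with RP5-1126H10.2. Edited reads numbered 39 of 78, 34 of 59 and 23 of 40, and the converted C bases were 0.647, 0.722 and 0.773. SEPT8, for a septin of the cytoskeleton, had a short cluster of 23 bases at chromosome 5 from 132100089 to 132100111, minus strand, with 15 of 23, 17 of 28 and 8 of 14 edited reads and 0.778, 0.680 and 0.686 converted C bases. In both loci the edited reads carried about 1 edited base each. Other clusters in SEPT8 had median shares of 5.30%, 3.72% and 1.75%.

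SMC2 and DGKQ moved between the partial and the near-complete class. SMC2, a core subunit of the condensin complexes that compact chromosomes, had 10 of 25, 18 of 27 and 8 of 16 edited reads at chromosome 9 from 106894321 to 106894365, plus strand. DGKQ, for the lipid kinase diacylglycerol kinase theta, had 6 of 14, 6 of 10 and 8 of 10 at chromosome 4 from 954086 to 954130, minus strand. Their SDs of 13.5 and 18.6 percentage points are the highest of the 21 loci, and at these depths the intervals of the replicates overlapped.

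Among the loci that met the rule in all 3 replicates, 1 was classed as spread in each. RP11-83J16.1, at chromosome 15 from 35235282 to 35235431, plus strand, had 22 of 34, 46 of 67 and 55 of 78 edited reads. Each edited read held 2.91, 3.13 and 2.84 edited bases, and the converted C bases were 2.26, 3.65 and 3.25. RP11-587D21.1, at chromosome 11 from 27603333 to 27603512, plus strand, came close to it, with 9 of 13, 33 of 46 and 19 of 34 edited reads and 1.33, 2.06 and 2.32 edited bases per edited read. It was intermediate in replicate 1 and spread in replicates 2 and 3. Its clusters were 60, 180 and 105 bases long, so the change of class cannot be told apart from the change of length. Neither name matched a RefSeq gene. In these loci the change was distributed over several C bases of the same reads, in clusters of up to 180 bases.

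The 13 loci that met the rule in 2 replicates had mean edited-read shares from 37.4% (RP11-364L4.1) to 80% (PTPN12), and 10 of them had a cluster in all 3 replicates. Those with the most reads were PDIA6, RP11-364L4.1, SIX2 and RPL41P1. PDIA6, a disulfide isomerase of the endoplasmic reticulum, had 180 of 410, 104 of 304 and 70 of 159 edited reads at chromosome 2 from 10924073 to 10924222, minus strand. Its shares of 43.9%, 34.2% and 44.0% had overlapping intervals although the second is below the limit. The PDIA6 cluster was 75 bases long in replicates 1 and 2 and 135 in replicate 3. RP11-364L4.1, at chromosome 4 from 144271149 to 144271193, minus strand, had 83 of 287, 160 of 378 and 196 of 477 edited reads. Its share of 28.9% in replicate 1 (24.0 to 34.4) lay below both other intervals, which began at 37.4% and 36.8%.

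SIX2 encodes a homeobox factor of kidney progenitor cells. At chromosome 2 from 45232391 to 45232465, minus strand, it had 23 of 56, 14 of 57 and 24 of 51 edited reads. The SIX2 cluster was 75 bases long in replicate 1 and 45 in replicates 2 and 3. RPL41P1, a pseudogene of ribosomal protein L41, was the spread locus with most reads in this group, with 16 of 54, 17 of 28 and 16 of 36 edited reads at chromosome 20 from 21736062 to 21736171, plus strand. It had 1.56, 1.59 and 3.00 edited bases per edited read. SIX2 and RPL41P1 each fell below the limit in 1 replicate, at 24.6% and 29.6%.

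The motor protein gene DYNC1H1, for the heavy chain of cytoplasmic dynein, had 12 of 29, 23 of 38 and 6 of 17 edited reads at chromosome 14 from 102499607 to 102499636, plus strand. SAPCD2 had 7 of 39, 16 of 39 and 18 of 32 at chromosome 9 from 139958097 to 139958141, minus strand, and its interval in replicate 1 (8.98 to 32.7) did not reach that of replicate 3 (39.3 to 71.8). SORBS3, for the adhesion adaptor vinexin, had 11 of 17, 8 of 20 and 4 of 16 at chromosome 8 from 22426752 to 22426787, plus strand. All 3 genes had a partial change in each replicate, with at most 0.765 converted C bases.

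Near-complete or mixed change was seen in PTPN12, ARF6, SLMAP and NBPF14, which also met the rule in 2 replicates. PTPN12, for a cytoplasmic tyrosine phosphatase, had 12 of 12 and 6 of 10 edited reads in replicates 1 and 2 and 1.00 and 0.980 converted C bases. ARF6, for a small GTPase of membrane traffic, had 6 of 13 and 16 of 25 in replicates 2 and 3. SLMAP, for a membrane-anchored protein, had 5 of 5, 15 of 21 and 5 of 11, the first below the minimum of 10 reads. In NBPF14, a member of the neuroblastoma breakpoint family of repeated genes, 13 of 23 and 11 of 19 reads were edited in replicates 1 and 2. Those clusters were 135 and 45 bases long. Genes of this family are near-identical copies, and how such reads were assigned is not given in the sources used here.

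The last pair of the loci that met the rule in 2 replicates was intronic. The cluster in introns of ELF2, an ETS family transcription factor, and PPP1R14BP3 lies at chromosome 4 from 140035838 to 140035882, minus strand, with 14 of 25, 7 of 21 and 8 of 14 edited reads. Its converted C bases were 1.00, 0.984 and 1.00, but its covered C bases were only 0.560, 0.349 and 0.571 of the mean depth per C base. It thus came out as nearly completely changed from fewer covered bases than its depth. The cluster in introns of MPP1 and HMGN1P37 at chromosome X from 154045248 to 154045367, minus strand, had 8 of 15, 8 of 12 and 4 of 8 edited reads with 1.5, 2.62 and 2 edited bases per edited read.

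The 29 loci of 1 replicate were mostly shallow. Their clusters had a median of 12 reads, 22 had under 20 reads and 9 had exactly 10, where 4 edited reads suffice. In the 21 loci of all 3 replicates, 11 of 63 clusters had under 20 reads and the median was 40. The edited-read share of the 29 clusters ran from 40% to 100% with a median of 45.5%. Of these loci, 15 had no cluster in another replicate, and the 23 clusters that the other 14 had there ran from 5.26% to 100% with a median of 30.4%.

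By reads, the first of the 29 was LINC00486, a long noncoding RNA gene with a cluster in an intron at chromosome 2 from 33091936 to 33091980, plus strand, in replicate 1 only. It was listed with 677 of 952 edited reads but with 15 edited bases, which is 0.0222 edited bases per edited read and 0.0192 converted C bases. By its bases it was hardly edited, and the difference between its counts was not tested. It is the only highly edited cluster with at least 100 reads that no other replicate had.

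The next by reads had values on both sides of the limit. RPS24, a ribosomal protein of the small subunit, had 12 of 29 edited reads in replicate 2 and 4 of 22 in replicate 3. TLK2, a kinase of chromatin assembly, had 8 of 26, 12 of 33 and 15 of 26. MBTPS2, the protease that releases the lipid-regulating SREBP factors in the Golgi, had 11 of 23, 14 of 40 and 6 of 23. C11orf74 had 7 of 23, 10 of 25 and 4 of 18, and AC004453.8 had 8 of 23, 1 of 19 and 12 of 25. The clusters of RPS24, TLK2 and AC004453.8 differed in extent between replicates. That of AC004453.8 ran from 44507802 to 44507846 in replicate 2 and ended at 44507816 in replicates 1 and 3. In all 5 the clusters of the other replicates were below 40%. EIF4BP7, a pseudogene named after its values were seen, was the opposite case. It had 8 of 8, 6 of 6 and 11 of 11 edited reads and met the rule in replicate 3 alone because the others had fewer than 10 reads.

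The limit cut through a continuous range of values. Between 30% and 40% lay 53, 52 and 41 clusters, more than above it. Among deeper clusters, just inside were the 23 of 56 reads of SIX2 in replicate 1 (41.1%), the 16 of 39 of SAPCD2 in replicate 2 (41.0%) and the 196 of 477 of RP11-364L4.1 in replicate 3 (41.1%). Just outside were RNF26 with 17 of 44 in replicate 1 (38.6%), EEF1A1P5 with 22 of 58 in replicate 2 (37.9%) and CTD-2031P19.4 with 20 of 54 in replicate 3 (37.0%). Below the minimum of 10 reads stood 1213, 1343 and 1280 clusters, of which 108, 93 and 90 had at least 40% edited reads.

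Whether a cluster of the other replicates lay at the same place was not used by the rule. Of the highly edited clusters 75%, 73.8% and 86.1% were overlapped by clusters of both other replicates, against 11.3%, 10.5% and 14.3% of the other clusters with at least 10 reads. The difference was 66.3 ± 4.78 percentage points (SD, n = 3) and was positive in 3 of 3 replicates. With 3 replicates the exact two-sided sign-flip permutation test cannot go below p = 0.25, which was its value here (0.275 after Benjamini-Hochberg adjustment over 11 comparisons). Clusters with few edited reads can miss the threshold for windows in another replicate, so the comparison was repeated with at least 11 edited reads. The shares were then 88.9%, 89.3% and 96.3% against 80.1%, 75.4% and 82.5%. The difference shrank to 12.2 ± 2.92 percentage points, again in 3 of 3 replicates with an exact sign-flip p = 0.25. The highly edited clusters still had the higher edit fraction here, on which the calling of windows depends. Its median was 8.76% against 0.658% in the mean over replicates. The remaining difference thus cannot be told apart from the choice of clusters.

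Recurrence was lowest at 10 to 19 reads in both sets of clusters. With 10 to 19 reads, 46.7%, 35.7% and 69.2% of the highly edited clusters were found in both other replicates, against 1.09%, 1.07% and 3.15% of the others. With 20 to 49 reads the shares were 92.3%, 87.5% and 90.9% against 4.50%, 3.91% and 7.66%. With 50 to 99 reads all highly edited clusters were found, against 10.1%, 10.8% and 17.5%, and with at least 100 reads 85.7%, 100% and 100% against 32.3%, 30.4% and 38%. The value of 85.7% comes from LINC00486. At a given number of reads the rule gives the highly edited clusters more edited reads, on which the calling of windows depends, so these differences cannot be told apart from the choice of clusters.

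**Figure D3:**
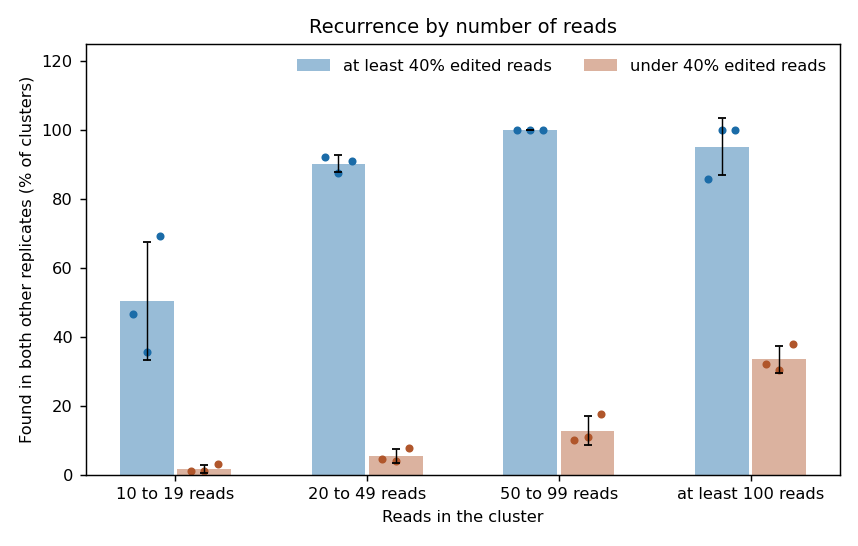
Share of clusters found in both other replicates (percent, vertical axis) by the number of reads in the cluster, for clusters with at least 40% and under 40% edited reads. Bars are means over 3 replicates, points are replicates and whiskers are SD; in each class of reads the points of the highly edited clusters lie above those of the others, which at a given number of reads have fewer edited reads by the rule.

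Near-complete clusters were found again more often than partial clusters in these replicates, a description without a test. Of the near-complete clusters 88.9%, 94.7% and 94.7% were found in both other replicates, and of the partial clusters 69.2%, 57.1% and 60.0%. Where a highly edited cluster overlapped a cluster with at least 10 reads in another replicate, 152 of 185 of those reached 40% too (82.2%). For near-complete clusters this was 100 of 104 (96.2%) and for partial clusters 29 of 48 (60.4%). Spread clusters reached 40% again in 14 of 17 pairs and intermediate ones in 5 of 12. The median absolute difference between the replicates of a pair was 2.94 percentage points in the near-complete class and 15.1 in the partial class. These pairs count a locus several times and are not independent, so no test was run. The classes also differed in their distance from the limit, with a mean over replicates of the median edited-read share of 78.1% in near-complete and 48.1% in partial clusters, which bears directly on whether 40% is reached again. Near-complete clusters had a median of 34.5 reads and partial clusters 17.

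**Figure D4:**
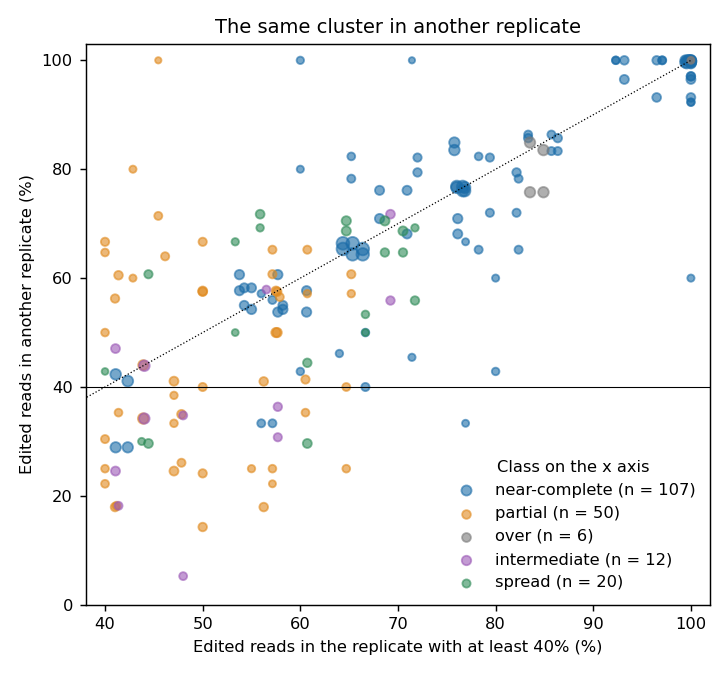
Edited-read share in another replicate (vertical axis, percent) against the share in the replicate where the cluster had at least 40% (horizontal axis, percent) for every overlapping pair, with larger points for more reads in the other replicate and the limit of 40% as a horizontal line. Near-complete pairs follow the dotted diagonal and partial pairs scatter on both sides of the limit; the counts in the key include pairs with under 10 reads in the other replicate.

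Pseudogenes and genes without a matched name had larger shares among the highly edited clusters than among the others. Gene names were matched to RefSeq, where 53 of 70 names of highly edited clusters and 9127 of 9904 of all names had an entry. Clusters in a pseudogene made up 15%, 14.3% and 19.4% of the highly edited clusters and 1.31%, 1.49% and 1.27% of the others. Clusters with no matched name made up 27.5%, 23.8% and 30.6% against 1.45%, 1.2% and 1.61%. Protein-coding genes held 60.0%, 64.3% and 52.8% against 96.8%, 96.8% and 96.5%. Each of these differences had the same sign in 3 of 3 replicates, and the exact sign-flip test gave its smallest p of 0.25 (0.275 adjusted) for each. The replicates largely recount the same genes, because 21 of the 63 loci met the rule in all 3. By locus, 8 of 63 lay in a pseudogene, 13 had no matched name and 43 lay in a protein-coding gene. An unmatched name is a name that the table does not hold and says nothing of whether a gene is there.

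Kinds of genes were also counted by class, first over clusters, where 1 locus counts up to 3 times. Of the 56 near-complete clusters 14 lay in a pseudogene, 21 had no matched name and 23 lay in a protein-coding gene. Of the 37 partial clusters none lay in a pseudogene or lacked a matched name, and 36 lay in a protein-coding gene. Of the 12 spread clusters 4 lay in a pseudogene, 7 had no matched name and 3 lay in a protein-coding gene, where a cluster can lie in more than 1 gene. Counted once per class, 5 of 24 near-complete loci, 0 of 29 partial loci and 2 of 7 spread loci lay in a pseudogene, and 8, 0 and 4 had no matched name. No test was run on these counts. By locus, the 21 of all 3 replicates comprised 4 with a pseudogene, 9 without a matched name and 8 with a protein-coding gene, and the 29 of 1 replicate comprised 1, 3 and 24. Whether reads of these pseudogenes also align to their parent genes was not tested, and the counts of such near-identical copies are uncertain.

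**Figure D5:**
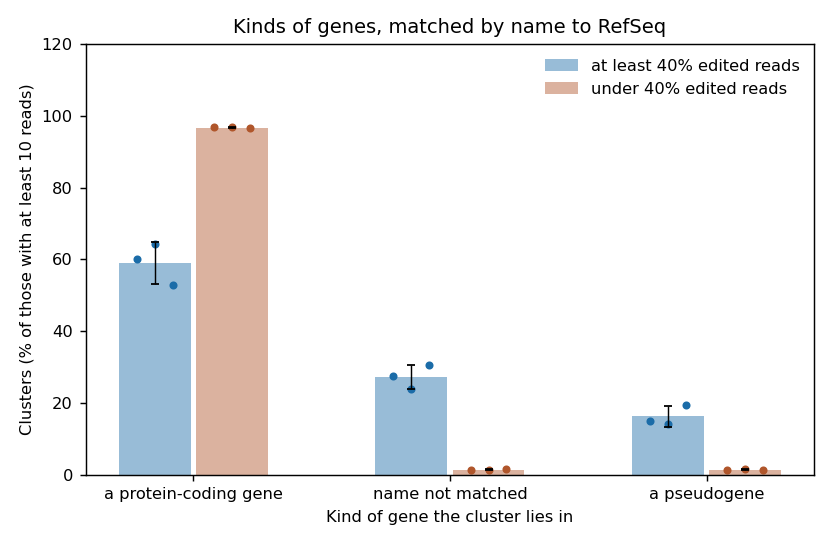
Share of clusters (percent, vertical axis) that lie in a protein-coding gene, have no gene name matched to RefSeq or lie in a pseudogene, for clusters with at least 40% and under 40% edited reads, with bars for means over 3 replicates, points for replicates and whiskers for SD. Of the highly edited clusters 59% lay in protein-coding genes, against 96.7% of the others.

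Other groups of genes were counted by symbol. Clone-named genes had 13, 11 and 12 highly edited clusters at 15 loci, which is 30.7% ± 3.91 (SD, n = 3) of them and 4.28% ± 0.141 of all clusters with at least 10 reads. Mitochondrially encoded genes had 2 in each replicate, MT-ND2 and MT-ND5, out of 7, 4 and 5 mitochondrial clusters. Ribosomal protein genes and their pseudogenes gave 3 loci, RPL12P4, RPL41P1 and RPS24, which is 5.07% ± 2.36 of the highly edited clusters and 1.29% ± 0.0335 of all. Splicing regulators, the class to which RBFOX2 belongs, had 0, 1 and 0 highly edited clusters and held 2.15% ± 0.248 of all clusters. The locus was HNRNPA1P48, whose symbol is that of a copy of HNRNPA1. RBFOX2 itself had 17, 16 and 16 clusters with at least 10 reads and none was highly edited, where the share over all clusters was 0.306%, 0.304% and 0.357%. Histone genes held 0.225% ± 0.0314 and small noncoding RNA genes 1.01% ± 0.0755 of all clusters, and neither had a highly edited cluster. With so few clusters these counts of 0 or 1 are no result about the groups.

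Other clusters in the same genes mostly had a low edited-read share, as did the bulk of all clusters. Of the 63 loci, 35 lay in a gene with a further cluster in some replicate, 196 clusters in all. The median over loci and replicates of their median edited-read share was 7.57%. Over all clusters with at least 10 reads the median was 5.13%, 5.13% and 5.41%, so the low value is no trait of these genes. A further cluster with at least 10 reads and at least 40% edited reads would itself count as highly edited. The highest share among the 196 clusters was 50%, in KIAA0247, whose cluster had 6 reads. For the other 28 loci the gene had no further cluster in the lists used here.

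Position and base composition were compared too. The mean length was 54.1, 59.4 and 54.4 bases against 54.5, 54.0 and 54.1, with a difference of 1.79 ± 3.13 bases (exact sign-flip p = 0.75). Among clusters with at least 11 edited reads the highly edited ones were shorter in 3 of 3 replicates. Their mean lengths were 50.7, 55.7 and 57.6 bases against 111.5, 108.8 and 104.5. Clusters below the limit need more reads to hold 11 edited reads, and their median was 503.5 reads against 37.2 (means over replicates). Over all other clusters the mean length was 47.7 bases at 10 to 19 reads and 66.3 at 100 or more. This difference in length thus cannot be told apart from the choice of clusters. Highly edited clusters held 23.7, 26.3 and 26.9 C bases per 100 bases and the others 19.2, 19.8 and 20.1. This difference of 5.92 ± 1.26 had the same sign in 3 of 3 replicates (exact p = 0.25). By class, the median length was 45 bases in near-complete and partial clusters and 115 in spread clusters. Intronic clusters numbered 4, 1 and 1, which is 10.0%, 2.38% and 2.78%, against 1.97%, 2.31% and 1.57% of the others (exact p = 0.25). They came from 4 loci, those of ELF2, MPP1 and LINC00486 and 1 shared by C16orf45 and MPV17L.

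The 3′ part of genes was examined on the minus strand, where the deposited exon numbers rise with position, so that the lowest number marks the 3′-most exon. Of the highly edited clusters in protein-coding genes on this strand 7 of 9, 6 of 7 and 6 of 8 lay in that exon, against 64.5%, 59.5% and 61.2% of the other clusters. The counts are too small for a statement on the difference. Exon boundaries and untranslated regions on hg19 were not used here.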

How the data were processed

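Per the submitters' processing notes reads were aligned with STAR to hg19, and per the paper C-to-U positions were called with SAILOR after removal of common SNPs. FLARE then tested windows of 30 bases at an adjusted p-value of 0.1 and merged windows within 15 bases, separately for each replicate. The deposited counts of reads, edited reads, edited bases, covered C bases and C bases are whole numbers without scaling. The deposited fractions of edited bases and edited reads were recomputed from the counts in all 40843 clusters. The deposited mean read depth is a coverage signal, not scaled to library size, and the authors' score, a cumulative probability, entered only an alternative.

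Clusters of different replicates were paired where they shared 1 base or more and the strand. Shares, Wilson intervals and exact sign-flip permutation tests over the 3 replicates came from Python 3.11.15 with NumPy 2.4.6, pandas 2.3.3 and SciPy 1.17.1, with matplotlib 3.10.9 for figures. The class code was run on simulated clusters built from the class definitions, with every read covering every C base. Such a check shows only that the code follows its definitions. A cluster with 10 to 19 reads had an interval of 46.0 percentage points in the median, and 1 with at least 100 reads an interval of 5.06. No depth of the whole library entered. RefSeq names are of a newer assembly, so no position was taken from them.

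The clusters, classes and gene groups were chosen with earlier results of these data known. Named are all loci of 3 replicates, the loci of 2 replicates with most reads per class (up to 8), the 6 of 1 replicate with most reads, and clusters next to the limit.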

Additional observations from a re-analysis of the deposited data

How the results depend on the processing

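Over 8 results, 57 values were recomputed under alternatives other than leaving out a replicate. The number of clusters was judged by its ratio to the main value, and the other results by the SD between replicates. By these limits 36 values stayed the same and 21 moved. The main values were 39.3 clusters per replicate, 47.7% near-complete, 10.1% spread and 78.3% found in both other replicates. In the main setting 53.6% were highly edited in both, and the median edited-read share in the other replicates (elsewhere) was 65.0%. A minimum of 20 reads left 25.3 clusters per replicate, 58.0% near-complete and 93.5% found in both other replicates. A minimum of 50 reads left 12 clusters, 69.4% near-complete, 5.56% spread, 97.2% found in both, 66.7% highly edited in both and a median edited-read share elsewhere of 67.2%. With a limit of 50% edited reads the near-complete class had 63.5%, the share found in both was 87.7%, that highly edited in both 67.0% and the median elsewhere 69.3%. With a limit of 30%, 88 clusters had 22.9% near-complete and 22.6% spread editing, 49.6% were found in both, 29.8% were highly edited in both and the median elsewhere was 48.8%. The share of the near-complete class thus depends on the limit of edited reads. Near-complete limits of 0.9 to 1.1 converted C bases gave 42.6%, and a spread limit of 2 edited bases per edited read gave 6.79%. Leaving out the LINC00486 cluster was chosen after seeing the data and moved none of the 8 results beyond the spread. Leaving out each replicate in turn gave 38 to 41 clusters, 45.1% to 49% near-complete, 9.17% to 11% spread, an elsewhere median of 61.8% to 65.2%, 2.58% to 6.39% intronic and a mean length of 54.3 to 56.9 bases. With 1 other replicate left, which is a weaker requirement, 81.7% to 85.1% were found there and 63.3% to 67.1% were highly edited there. No fit with a replicate block was made, since there is only 1 group, and highly edited and other clusters were compared within each replicate. Clusters of 10 to 19 reads have a wide interval of the edited-read share, and the number of replicates allows no p below 0.25. Windows that did not pass, cells without the fusion and genomic DNA were not analysed here, so the part of any C-to-T change that does not come from the fusion was not tested.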
